A study of Arabidopsis thaliana with 36 samples.

Results

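The 6am large polysomal RNA of Arabidopsis plants was compared with the 6am non-polysomal RNA. The comparison holds 6 of the 36 arrays of the series, 3 titled 6am, large polysomal and 3 titled 6am, non-polysomal, paired by replicate number. The titles do not say that equal numbers share an extract. Arrays of the same time and replicate number are called an extract here. All plants were CCA1-ox, a line in the Columbia background that overexpresses CIRCADIAN CLOCK ASSOCIATED 1, a MYB transcription factor of the morning part of the plant clock, so the transgene is shared by every group here. Wild-type plants are not analysed here, and no value separates an effect of the transgene. The aerial part of plants 10 days old was harvested. Seedlings had grown on MS agar with 1% sucrose in long days, 16 h light and 8 h dark, and lights came on at 6am. The other groups used are the 3 arrays of 6am small polysomal RNA, and the large polysomal and non-polysomal arrays of 12pm, 6pm and 12am (3 each). Nothing in the labels tells whether the replicates were grown separately, and the p-values therefore refer only to the variation among these extracts, part of which may be technical.

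An mRNA that is being translated carries several ribosomes at once, and such polysomes sediment faster through a sucrose gradient than single ribosomes, ribosomal subunits or free ribonucleoprotein. A transcript found mostly in the heavy part of the gradient therefore carries many ribosomes, and one found mostly at the top carries few or none. How many ribosomes fit on an mRNA also depends on the length of its coding sequence. In plants, nuclear mRNAs are read by cytosolic ribosomes, whereas mRNAs of the plastid and the mitochondrion are read inside the organelle by ribosomes of bacterial type and are as a rule not protected by a long poly(A) tail.

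Each probe set has a log2 expression value on each array, and the large polysomal value minus the non-polysomal value of an extract is called the loading. Each array was normalized to the same overall distribution, so a loading is relative to the other transcripts of the 2 fractions and does not give the share of a transcript's molecules on polysomes. In bulk RNA of the aerial part, a transcript that is less loaded in all cells and one that is less loaded in a part of the cells cannot be told apart. After control probe sets and those with a value of 5 or more on fewer than 3 of the 36 arrays were left out, 12635 probe sets remained, which name 66 plastid, 5 mitochondrial and 6733 nuclear genes.

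Markers of green tissue were high in both fractions: the phosphoribulokinase gene PRK averaged 12.86 on the large polysomal and 12.23 on the non-polysomal arrays, and the photosystem I gene PSAN 13.85 and 13.12. PYK10, a beta-glucosidase known from roots and hypocotyls, was also well above the low end of the scale, at 11.50 and 10.59, whereas FMA (guard cells) averaged 7.1 and 7.04 and ACT11 (pollen) 5.98 and 5.77. The array of each fraction correlated with the other 2 at r = 0.976 to 0.988 for large polysomal RNA and 0.961 to 0.966 for non-polysomal RNA. The control probe set for 25S ribosomal RNA read 2.15, the low end of the scale, on all 3 large polysomal arrays, against 7.42, 4.06 and 5.15 on the non-polysomal arrays. The mean of 24 poly(A) spike-in probe sets was 6.85, 6.07 and 6.14 against 9.66, 8.75 and 9.08. The gap between the 3' and 5' control probe sets of GAPDH was 8.64, 8.15 and 8.90 against 8.01, 7.36 and 8.42. That of actin was 9.31, 9.40 and 9.20 against 9.06, 9.24 and 8.33. The gap of ubiquitin went the other way, at 3.86, 4.04 and 3.84 against 4.17, 4.16 and 4.36. The part of these differences in the results below was not tested.

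At 6am the fractions differed widely. Of the 12635 probe sets, 8303 were called at an adjusted p under 0.05 in the limma fit, which is 65.7%. On large polysomes 4553 were higher (36%) and 3750 were lower (29.7%), and 3517 of the calls were at least 2-fold. The median difference over all probe sets was 0.07 on the log2 scale. These directions hold relative to the other transcripts: with arrays shifted to equal spike-in signal the median was 2.88, and 12390 probe sets were higher and 27 lower. Of the 3750 lower probe sets, 3676 were above 0 after that shift. The 3 large polysomal values lay above all 3 non-polysomal values for 30.8% of the probe sets and below them for 24.7%. Of the probe sets called higher, 97.5% had the same sign in all 3 pairs, and of those called lower 96.5%.

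The small polysomal arrays were set against both other fractions. Their mean lay between those of the other fractions for 81.0% of the probe sets that were higher on large polysomes and for 84.1% of those that were lower. Between large and small polysomal RNA 4321 probe sets were called (34.2%), 2349 higher (18.6%) and 1972 lower (15.6%). Between small polysomal and non-polysomal RNA 6263 were called (49.6%), 3409 higher (27.0%) and 2854 lower (22.6%). A rise at both steps was called for 1019 probe sets, 22.4% of those higher on large polysomes, and a fall at both for 973, 25.9% of those lower. Another 207 were highest in the small polysomal fraction, with both steps called, and 276 were lowest there.

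The largest rises on large polysomes were those of loci known here only by their codes. AT3G50370, on chromosome 3, had 8.38, 8.53 and 8.26 on the large polysomal arrays against 3.07, 3.19 and 2.82 on the non-polysomal arrays. AT1G64370 had 8.51, 9.04 and 9.33 against 3.68, 4.22 and 3.92. The non-polysomal values of both lie near the low end of the scale, where GCRMA compresses differences. Among transcripts with a mean of 5 or more in both fractions, AT5G45350 differed most, with 9.91, 10.38 and 10.28 against 5.83, 5.56 and 6.03, a difference of 4.38 ± 0.24 (SE, adjusted p = 1.2e-12).

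Among genes with a symbol of their own and means of 5 or more, the 10 largest rises were those of CYS1, SECE1, TIC, COR47, CML30, 3xHMG-box2, M17, COR15B, PSY1R and GAMMA-VPE. CYS1 (AT5G12140), a cystatin that inhibits cysteine proteases, had 11.71, 11.79 and 11.79 on large polysomal arrays against 8.39, 8.17 and 7.95 on non-polysomal arrays, which is 12.1-fold higher (log2 difference 3.59 ± 0.30, SE; adjusted p = 4.4e-10). SECE1 (AT4G14870), a subunit of the plastid Sec translocase that inserts thylakoid proteins, had 8.80, 8.97 and 8.63 against 6.09, 5.01 and 5.59, 9.42-fold higher (adjusted p = 8.5e-12). The groups of both genes are far apart, and the small polysomal means of 10.36 and 7.2 lie between them. GAMMA-VPE, a vacuolar processing enzyme and itself a cysteine protease, was 5.38-fold higher (10.13, 10.54 and 10.39 against 7.80, 7.83 and 8.14). 3xHMG-box2, which encodes a DNA-binding protein with high mobility group boxes, was 6.15-fold higher. PSY1R, the receptor kinase named after the peptide PSY1, was 5.94-fold higher, and CML30, a calmodulin-like protein, 6.73-fold. For CML30 the small polysomal mean of 7.17 was called against the large polysomal one (adjusted p = 7.1e-07) and not against the non-polysomal one (adjusted p = 0.16). COR15B had the same steps, with adjusted p-values of 3.6e-10 and 0.83.

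**Figure D1:**
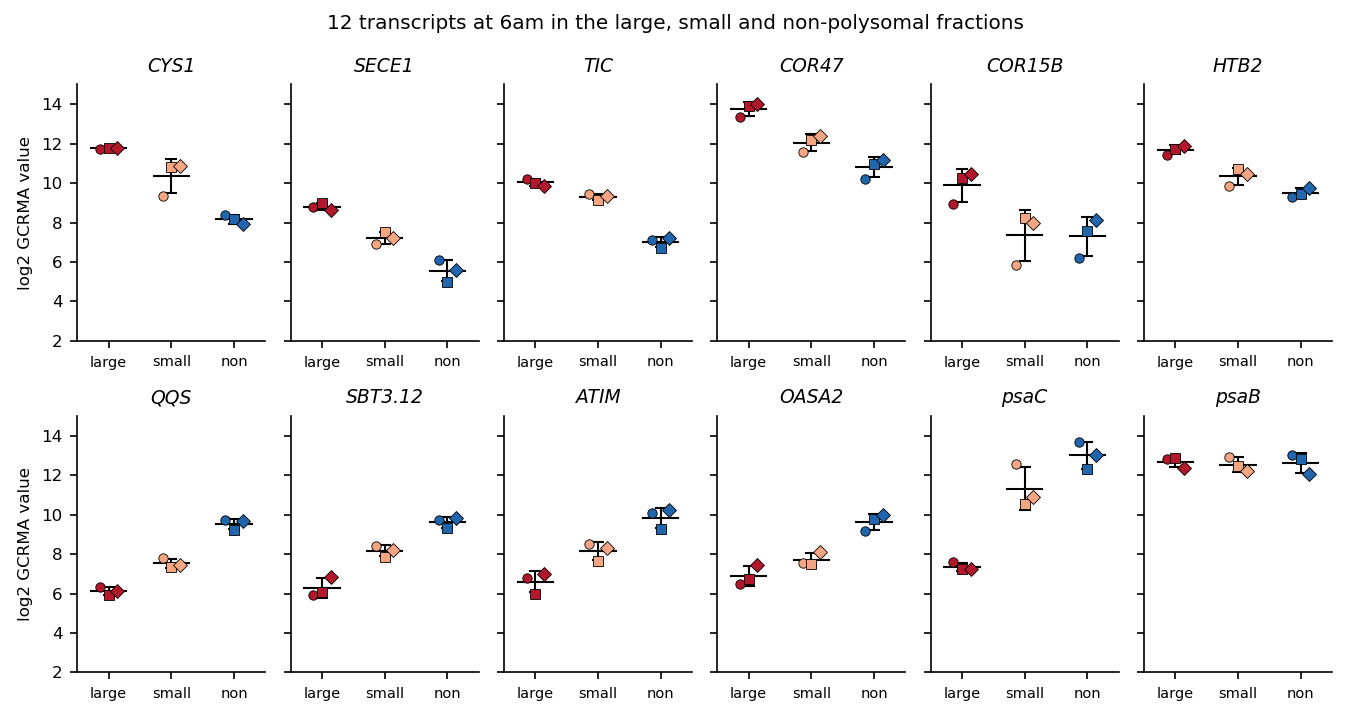
Log2 GCRMA values (vertical axis) of 12 transcripts at 6am on the large polysomal, small polysomal and non-polysomal arrays; points are arrays (circle, square and diamond for replicates 1, 2 and 3), horizontal lines are means and bars are SD (n = 3). The upper 6 transcripts and the lower QQS, SBT3.12, ATIM, OASA2 and psaC keep large and non-polysomal arrays apart in opposite directions (psaC differs by -5.65), while those of psaB overlap.

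Transcripts of cold-regulated and dehydration-related proteins were among the most heavily loaded. Of 13 measured genes of this list 11 were higher on large polysomes and 2 were lower. Their median difference was 2.41, against 36% higher and 29.7% lower and a median of 0.07 over all probe sets. COR47, a dehydrin, had 13.36, 13.92 and 14.03 on the large polysomal arrays against 10.23, 10.99 and 11.18 on the non-polysomal arrays, 7.84-fold higher (log2 difference 2.97 ± 0.12, SE; adjusted p = 1.1e-14). AT1G54410, the dehydrin HIRD11, had 14.58, 14.80 and 14.88 against 10.96, 12.43 and 12.13 and was 7.52-fold higher. Both dehydrins were thus close to the top of the scale on large polysomes. COR15B, a protein imported into chloroplasts in the cold, had 8.92, 10.28 and 10.47 against 6.21, 7.59 and 8.13. Its pairs differed in level by more than 1 unit and still gave similar loadings, for a difference of 2.58 ± 0.15 (SE). Its neighbour in the genome, COR15A, differed less, with 8.13, 10.15 and 10.26 against 7.00, 8.68 and 9.27; the groups overlap, and the paired difference of 1.2 was called (adjusted p = 1.5e-06). LEA18 differed by 3.43 and the dehydrin LTI30 by 2.70, both with non-polysomal means under 5. M17, another late embryogenesis abundant protein, differed by 2.59, the lipocalin TIL by 2.41 and SRC2, which takes its name from a soybean gene regulated by cold, by 1.83.

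The 2 members of the list that were lower on large polysomes had separate groups as well. DI21, named as drought-induced, had 10.00, 9.87 and 9.81 on large polysomal arrays against 12.42, 11.97 and 12.33 on non-polysomal arrays, a difference of -2.35 ± 0.15 (SE, adjusted p = 8.9e-12). HVA22C, of a family of membrane proteins named after a barley gene induced by abscisic acid, had 8.18, 8.21 and 8.30 against 9.92, 9.47 and 9.38. Membership of the list thus went with loading in most but not all of its genes.

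The largest falls were again those of loci with codes only. AT1G23650, first of all nuclear genes, with a gene span of 87 bp, had 2.55, 2.24 and 2.28 on large polysomal arrays against 7.74, 5.91 and 6.87 on non-polysomal arrays. Its large polysomal values lie at the low end of the scale. Among transcripts with means of 5 or more, AT2G22620 differed most and had 5.12, 5.05 and 5.66 against 9.33, 8.87 and 10.02, and AT1G65370 had 7.45, 7.80 and 8.66 against 11.48, 11.80 and 12.09. One of the 10 largest falls, AT2G07741, lies in the stretch of chromosome 2 that holds a copy of the mitochondrial genome, so its signal could come from either genome.

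Among nuclear genes with their own symbol and means of 5 or more, QQS, SBT3.12, TIMELESS (ATIM), OASA2 and the myosin gene VIIIB had the 5 largest falls on large polysomes; after the spike-in shift none of the 5 was called (QQS -0.61, adjusted p = 0.088). QQS (AT3G30720), an orphan gene whose short protein affects starch content, had 6.32, 5.90 and 6.12 on large polysomal arrays against 9.71, 9.21 and 9.66 on non-polysomal arrays, 10.7-fold lower (log2 difference -3.41 ± 0.17, SE; adjusted p = 4.1e-13). The subtilase gene SBT3.12 had 5.92, 6.09 and 6.83 against 9.71, 9.31 and 9.85, 10.2-fold lower. ATIM (AT5G52910), the homolog of the animal chromosome replication protein TIMELESS, had 6.79, 5.98 and 6.99 against 10.06, 9.26 and 10.21, 9.55-fold lower. In each of these 3 genes every large polysomal value was below every non-polysomal value, with the small polysomal mean in between. OASA2, of the O-acetylserine (thiol) lyase family that makes cysteine, was 6.70-fold lower, and VIIIB, a class VIII myosin, 6.58-fold lower. SFP1, of the sugar transporter family, was 5.18-fold lower, MENG, a methyltransferase of phylloquinone synthesis, 4.67-fold and GLX2-5, a glyoxalase, 3.56-fold. SFP1 was already low in the small polysomal fraction, at a mean of 5.79, and its large and small polysomal means were not told apart (adjusted p = 0.49).

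Plastid transcripts, as read from cRNA made with an oligo(dT) primer, were nearly all depleted from large polysomes. Such mRNAs as a rule have no long poly(A) tail, so these values need not stand for all copies of a plastid transcript. Of 66 measured, 63 were lower, 0 were higher and 3 were not called, with a median of -1.79, where 29.7% of all probe sets were lower. After the spike-in shift 49 of the 63 were above 0, 37 of them called higher, and 14 were below 0, 10 of them called lower, among these psaC at -2.84. Large and non-polysomal values did not overlap, in the lower direction, for 52 of the 66, against 24.7% of all probe sets. The depletion differed among complexes: the median was -3.53 over 6 genes of the cytochrome b6f complex, -2.77 over 6 of photosystem I, -2.25 over 9 of the NDH complex, -1.80 over 15 of photosystem II, -1.38 over 4 of the RNA polymerase and maturase, -1.21 over 7 of the ATP synthase and Rubisco, and -1.15 over 15 ribosomal proteins.

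The gene psaC, for the iron-sulfur subunit of photosystem I, had 7.59, 7.23 and 7.25 on large polysomal arrays against 13.69, 12.31 and 13.02 on non-polysomal arrays, 50.2-fold lower (log2 difference -5.65 ± 0.53, SE; adjusted p = 3.8e-09). The cytochrome b6f subunit gene petG had 7.51, 6.99 and 5.6 against 12.70, 10.64 and 10.54, and ndhG, of the NDH complex, 6.74, 6.57 and 6.2 against 12.75, 9.92 and 11.53. These transcripts had high values on the non-polysomal arrays, and the groups are widely apart. petN read 2.42 on all 3 large polysomal arrays against 9.05, 7.58 and 7.79, and petD 2.54, 2.36 and 2.41 against 8.96, 6.26 and 7.30. The large polysomal values of both are at the low end of the scale, so the differences of -5.72 and -5.07 have no exact size.

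Genes of large plastid proteins were not all alike. psbA, for the D1 protein of photosystem II, had 11.58, 10.39 and 10.56 on large polysomal arrays against 13.64, 13.08 and 12.78 on non-polysomal arrays (difference -2.32 ± 0.21, SE). rbcL, for the large subunit of Rubisco, had 7.42, 7.44 and 6.53 against 10.49, 9.54 and 9.20 (-2.61 ± 0.21). In contrast, psaB, for a reaction centre protein of photosystem I, had 12.81, 12.87 and 12.37 against 13.02, 12.81 and 12.04, and its groups overlap (difference 0.06 ± 0.13, adjusted p = 0.70). The other 2 plastid transcripts without a call were atpB, for the beta subunit of the ATP synthase, at 12.99, 12.70 and 12.49 against 13.02, 12.62 and 12.18, and rps19, at 11.95, 11.40 and 11.40 against 12.37, 11.27 and 11.45. Transcripts of the same complex thus ranged from psaB at 0.06 to psaC at -5.65. The brightest plastid probe set among those named, atpE, had 14.78, 14.75 and 14.80 against 15.25, 14.90 and 15.07, near the top of the scale; its call (adjusted p = 0.036) was lost in the fit without the replicate block (adjusted p = 0.068) and without any 1 of the 3 replicate numbers (0.069 to 0.17).

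All 5 mitochondrial transcripts were lower on large polysomes (median -2.04), as were 29.7% of all probe sets. After the spike-in shift all 5 were above 0, 3 of them called. The limit set by the oligo(dT) primer holds here as for plastid transcripts. The cytochrome oxidase gene cox1 had 10.47, 9.95 and 8.51 on large polysomal arrays against 12.63, 11.80 and 10.62 on non-polysomal arrays. Within each pair cox1 was about as much lower, and the groups do not overlap. nad1, of respiratory complex I, was at 2.34, 2.34 and 2.19 against 5.03, 5.15 and 4.82. The large polysomal means of 3 of the 5 were under 5.

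**Figure D2:**
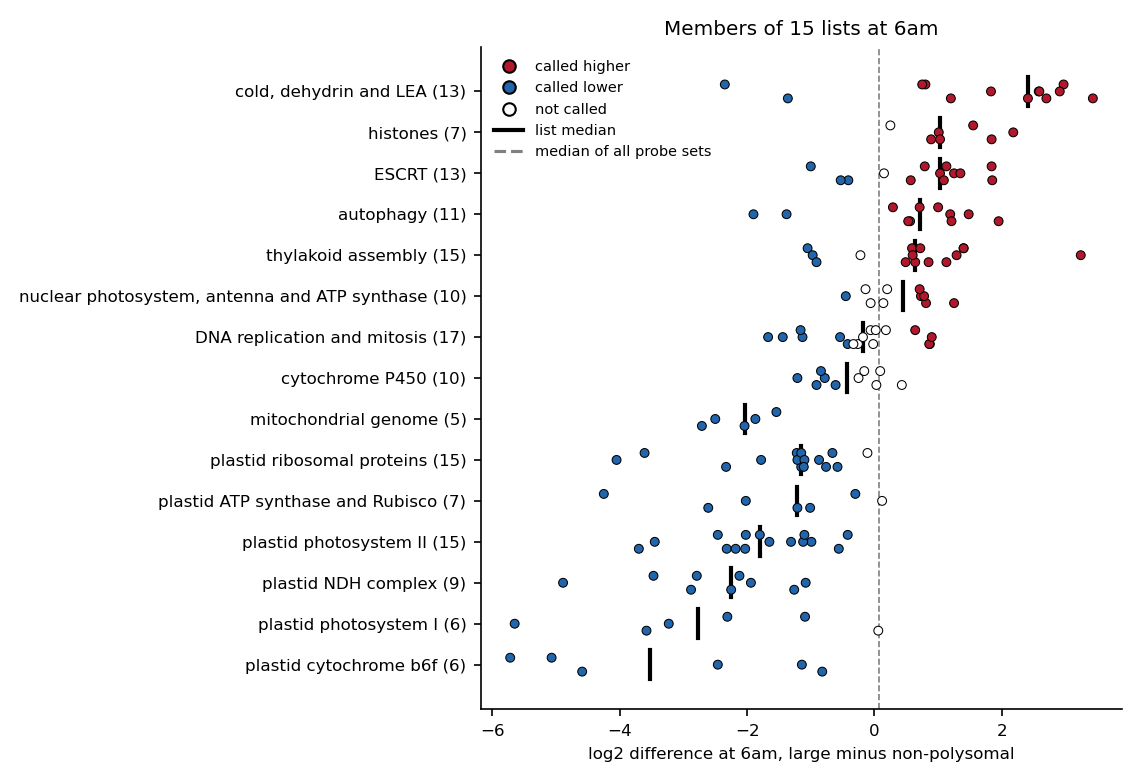
Log2 difference at 6am, large minus non-polysomal (horizontal axis), of each measured member of 15 lists, with the number of members in brackets. Red points were called higher and blue points lower at an adjusted p under 0.05, open points were not called, black bars are list medians and the dashed line is the median of all probe sets (0.07); the cold and dehydration list sits at the right with a median of 2.41 and the plastid and mitochondrial lists at the left.

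Of 10 nuclear genes of photosystems, antenna and ATP synthase, 5 were higher, 1 lower and 4 not called on large polysomes (median 0.45), where 36% of all probe sets were higher and 29.7% lower. PSBW, a small photosystem II subunit, had 13.64, 13.49 and 13.66 on large polysomal arrays against 12.67, 12.31 and 12.07 on non-polysomal arrays, 2.38-fold higher. The photosystem I genes PSAE-1 and PSAN were 1.76-fold and 1.66-fold higher, and ATPC1, for the gamma subunit of the ATP synthase, 1.64-fold. The antenna genes LHCB4.1 and LHCB4.2 overlapped between fractions, with differences of -0.14 and -0.06. Under cyclic loess normalization both were called lower (-0.41 and -0.32). Of 4 Calvin cycle genes, 1 was called: PRK had 12.78, 12.79 and 13.01 against 12.44, 12.22 and 12.02 (1.55-fold higher, adjusted p = 0.0018; 0.076 without replicate 3). RCA, for Rubisco activase, and SBPASE, for sedoheptulose bisphosphatase, had differences of 0.15 and 0.00.

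Of 15 genes for the assembly of thylakoid complexes, 11 were higher on large polysomes and 3 were lower (median 0.64), again against 36% and 29.7% of all probe sets. Besides SECE1, LIL3:1, a light-harvesting-like protein of chlorophyll synthesis, was 2.63-fold higher, and LPA2, needed for photosystem II assembly, had 10.39, 9.98 and 10.30 on large polysomal arrays against 8.98, 8.83 and 8.99 on non-polysomal arrays. LPA19, also a photosystem II assembly factor, had 10.26, 10.07 and 10.11 against 11.51, 10.92 and 11.17, and TROL, a thylakoid rhodanese-like protein, 11.86, 11.15 and 11.08 against 12.53, 12.57 and 11.91. The assembly factors of photosystem II therefore moved in both directions. PIFI, which affects electron flow through the chloroplast NDH complex, was 3.41-fold higher (11.01, 10.89 and 10.95 against 9.27, 8.87 and 9.39), one of 4 higher and 0 lower among 6 genes of that list. In chlorophyll and heme synthesis 6 of 9 genes were higher and 2 lower. HEMB1, for the enzyme that makes porphobilinogen, was 3.16-fold higher, while CHLM, for the magnesium-protoporphyrin methyltransferase, was 1.63-fold lower.

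In 4 protein families, given here as examples, most measured members were called with higher values in the large polysomal fraction. Over all probe sets 36% were called higher and 29.7% lower. Of 7 histone genes 6 were higher and 0 lower (median 1.03): HTB2, for a histone H2B, had 11.45, 11.73 and 11.90 on large polysomal arrays against 9.31, 9.46 and 9.77 on non-polysomal arrays, and HTB11 11.45, 11.35 and 11.13 against 9.86, 9.35 and 9.19. Histone mRNAs of animals lack poly(A) tails, whereas those of plants carry them. Of 13 genes of ESCRT, which sorts membrane proteins into multivesicular bodies, 9 were higher and 3 lower (median 1.03). VPS2.1 had 10.29, 10.92 and 11.03 against 8.37, 9.21 and 9.11, and VPS46.2 was 3.59-fold higher, whereas VPS20.1 had 7.99, 8.17 and 8.19 against 9.0, 9.12 and 9.23. Of 11 autophagy genes, 9 were higher and 2 lower (median 0.71). Within the ATG8 family, whose proteins are joined to autophagosome membranes, ATG8D was 3.85-fold higher and ATG8H 2.79-fold higher, and ATG8B was 2.60-fold lower (10.17, 10.01 and 10.14 against 11.69, 11.21 and 11.54). Of 7 tubulin genes 5 were higher, such as TUB1 at 9.56, 9.90 and 9.51 against 7.77, 8.42 and 7.11. The alpha-tubulin gene TUA6 was the 1 member called lower, by 0.54, a call that ended without replicate 2 (adjusted p = 0.062).

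Some of the other lists are given by their counts, against 36% higher and 29.7% lower over all probe sets. None of 10 cytochrome P450 genes was higher and 5 were lower (median -0.43), and 5 of the 10 had a large polysomal mean under 5. None of 11 LSM and U2AF splicing genes was higher and 3 were lower (median -0.29). Of 10 genes of branched-chain amino acid breakdown 1 was higher and 5 were lower (median -0.35). Of 17 DNA replication and mitosis genes 4 were higher and 6 lower (median -0.18). Of 22 transcription factors 9 were higher and 8 lower (median 0.06), of 21 UDP-glycosyltransferases 10 and 5 (median 0.33), of 19 subtilases and carboxypeptidases 10 and 7 (median 0.65), of 17 chaperones 7 and 5 (median 0.38), and of 11 ubiquitin-conjugating enzymes 4 and 4 (median 0.08). Of 13 genes of the tricarboxylic acid cycle and citrate metabolism 5 were higher and 2 lower (median 0.00). Of 6 starch metabolism genes 1 was higher and 3 lower. In that list, 2 loci that share the symbol PWD (phosphoglucan, water dikinase, an enzyme of starch breakdown) went opposite ways: AT5G26570 had 9.53, 9.71 and 9.90 against 8.83, 9.19 and 9.34, and AT4G24450 was 8.28-fold lower.

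Of 5 measured clock genes and clock outputs, 3 were higher and 1 lower, against 36% and 29.7% of all probe sets, and 1 of the 3, GI, was not a firm call. TIC, the nuclear clock regulator TIME FOR COFFEE, had 10.23, 10.03 and 9.84 on large polysomal arrays against 7.12, 6.71 and 7.22 on non-polysomal arrays, 8.09-fold higher (log2 difference 3.02 ± 0.18, SE; adjusted p = 5.3e-12). GI (GIGANTEA), a regulator of the clock and of flowering, had 6.45, 6.82 and 6.76 against 5.47, 6.79 and 6.26; the groups overlap, and its difference of 0.50 (adjusted p = 0.034) was lost in 9 of the alternatives, among them the fit without the replicate block (adjusted p = 0.084). COR27, a night-time repressor in the clock, had 11.14, 11.02 and 10.83 against 12.74, 12.83 and 12.51, 3.24-fold lower. CCL (CCR-like) was 1.60-fold higher. LIP1, a small GTPase, read 6.45 on all 6 arrays, which leaves nothing to compare.

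**Figure D3:**
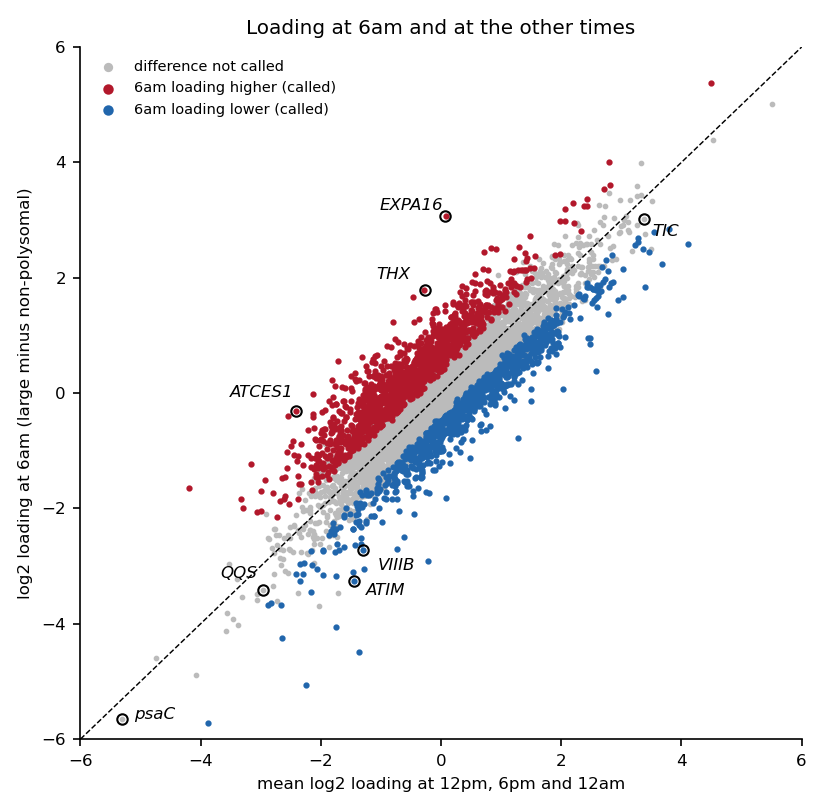
Log2 loading at 6am (vertical axis) against the mean log2 loading at 12pm, 6pm and 12am (horizontal axis) for every probe set that names 1 gene; the dashed line marks equal loading. Red points were called for a higher and blue points for a lower loading at 6am; EXPA16, THX and ATCES1 lie above the line, ATIM and VIIIB below it, and TIC and QQS near it.

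The loadings of 6am were next set against those of the other times. Over all probe sets the 6am loading correlated with that of 12pm at r = 0.860, of 6pm at 0.803 and of 12am at 0.842, as a description across probe sets of arrays normalized together. Between large and non-polysomal RNA 69.8% of the probe sets were called at 12pm (36.8% higher, 33.0% lower), 69.5% at 6pm (36.1% and 33.4%) and 68.3% at 12am (35.4% and 32.9%). On large polysomes 2967 probe sets were higher at all 4 times and 2460 lower at all 4. The test of the difference itself, 6am loading against the mean of the other 3 times, called 4099 of 12635 (32.4%): 2221 with a higher loading at 6am (17.6%) and 1878 with a lower one (14.9%). Of these 796 differed at least 2-fold, 550 higher and 246 lower. The count was 2266 without the replicate block, 1264 without replicate 2 and 1566 without replicate 3. It was 603 after arrays were shifted to equal spike-in signal, where the median difference of all probe sets was 0.23 in place of -0.02, and 27 of the named genes lost this call. In all, 53 probe sets were called higher on large polysomes at 6am and lower at every other time, and 10 the reverse.

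Transcripts with a higher loading at 6am included EXPA16, THX and ATCES1. EXPA16, an expansin that loosens cell walls, had loadings of 3.07 at 6am, -0.15 at 12pm, -0.36 at 6pm and 0.73 at 12am. Its non-polysomal values at 6am were 3.73, 4.78 and 4.54, near the low end of the scale, against large polysomal values of 7.1, 7.74 and 7.41. Its loading was 0.01 in replicate 1 of 12pm and 0.0 in replicate 1 of 6pm, which could come from low-end values in both fractions. The difference of EXPA16 between times therefore has no exact size, and the part of a change in level was not tested. Among transcripts with all 8 means of 5 or more, THX, thioredoxin X of the chloroplast, had 10.86, 10.58 and 10.13 on large polysomal arrays against 8.83, 8.96 and 8.44 on non-polysomal arrays at 6am. Its loading of 1.78 compared with -0.05, -0.45 and -0.32 at 12pm, 6pm and 12am (difference 2.06 ± 0.26, SE; adjusted p = 9.6e-06). ATCES1, a gene of ceramide metabolism, was not called at 6am (-0.31) and had -2.35, -2.63 and -2.24 at the other times (difference 2.1 ± 0.28). Its 3 loadings at 6am were -0.43, -0.30 and -0.20, all below 0 and all closer to 0 than its means at the other times. The loci AT5G11340, AT5G67510 and AT2G34585 differed from the other times by 2.27, 2.13 and 2.11. TUB1, the beta-tubulin above, had loadings of 1.89 at 6am and 1.07, 0.57 and 0.31 later.

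Of 9 genes of secreted signalling peptides, 7 had a higher loading at 6am than at the other times and 0 a lower one (median 0.71), where 17.6% and 14.9% of all probe sets did; at 6am alone 2 were higher and 2 lower. RALFL22, a peptide of the RALF family that alkalinizes the cell wall space, had loadings of 0.08 at 6am and -1.09, -1.80 and -1.61 at 12pm, 6pm and 12am. RALFL24 had 0.52 and then -0.86, -0.70 and -0.75, and RALFL33 0.29 and then -1.14, -0.62 and -0.77. RALFL32 and STOMAGEN, a peptide that increases stomatal number, had negative loadings at every time, -1.44 and -0.63 at 6am, and these were higher than at the other times by 0.54 and 0.71. The rise of RALFL32 was lost without the replicate block, under cyclic loess or quantile normalization, and without replicate 2 or 3.

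Of 11 LSM and U2AF splicing genes, 4 had a higher loading at 6am and 2 a lower one, where 17.6% of all probe sets were higher and 14.9% lower. LSM6B, LSM3B and LSM6A, of the ring of Sm-like proteins that acts in mRNA decay and on U6 RNA, differed by 1.71, 1.44 and 1.21. LSM3B had 11.28, 10.82 and 10.83 on large polysomal arrays against 12.13, 11.66 and 11.81 on non-polysomal arrays at 6am, a loading of -0.89, where later ones were -2.23, -2.63 and -2.12. Of 11 ubiquitin-conjugating enzymes 5 had a higher and 0 a lower loading at 6am, with UBC30 at 0.84 and then -0.09, -0.56 and 0.05. Of 10 nuclear photosystem genes 4 were higher and 1 lower. PSBW had a loading of 1.25 at 6am and 0.03, 0.30 and 0.50 later (difference 0.98 ± 0.14, adjusted p = 2.4e-05). PSAN, PSAE-1, ATPC1 and PRK differed by 0.69, 0.62, 0.51 and 0.74, and none of these 4 was called under cyclic loess normalization. PIFI differed by 1.21. Of 11 autophagy genes 5 were higher and 0 lower.

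Transcripts with a lower loading at 6am included ATIM, VIIIB, INO80 and FY. ATIM had loadings of -3.26 at 6am and -1.61, -1.08 and -1.66 at 12pm, 6pm and 12am (difference -1.81 ± 0.26, SE; adjusted p = 2.8e-05). It is not among the transcripts with all 8 means of 5 or more. Its means at 6am were 6.59 and 9.84, so a mean at another time was under 5, and the loading there has no exact size. VIIIB had -2.72 and then -1.03, -1.46 and -1.40. INO80, an ATPase that remodels chromatin, had 8.73, 8.91 and 9.49 on large polysomal arrays against 9.80, 9.98 and 10.91 on non-polysomal arrays at 6am, a loading of -1.19, and then -0.05, -0.10 and 0.17. FY, a factor of mRNA 3' end formation, had -1.26 and then -0.21, 0.15 and -0.04. These 4 transcripts were less loaded at 6am in each of the 3 replicate numbers, which the rule that ranked VIIIB, INO80 and FY required. Of 11 chromatin remodelling genes 4 had a lower and 0 a higher loading at 6am (median -0.37), and of 11 ubiquitin-specific proteases 3 and 0, where 14.9% of all probe sets were lower and 17.6% higher. UBP21 had loadings of -0.25 and then 0.96, 1.18 and 1.05. MAP1B, a methionine aminopeptidase, differed by -1.24, and AT4G24450 by -1.77.

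The loading of NTRC, FUG1 and GI was lower at 6am as well. NTRC, the NADPH-dependent thioredoxin reductase of the chloroplast, had 11.32, 11.18 and 11.48 on large polysomal arrays against 11.03, 10.92 and 11.54 on non-polysomal arrays at 6am; its loading of 0.16 was not called, where later ones were 1.06, 1.23 and 1.2 (difference -1.0 ± 0.14, adjusted p = 2.8e-05). FUG1, a translation initiation factor of the plastid, was 3.41-fold higher on large polysomes at 6am and had still larger loadings later, 2.34, 2.87 and 2.77. GI had 0.50 at 6am and 1.18, 1.64 and 1.70 later (difference -1.01 ± 0.24, adjusted p = 0.0027). Among plastid transcripts 10 of 66 had a lower and 0 a higher loading at 6am (median -0.37); the lower share is close to the 14.9% of all probe sets. atpB, not called at 6am, had 0.87, 1.29 and 1.01 at the other times. TIC and QQS were not called for the difference, at -0.35 and -0.45, nor were COR47 and CYS1, at -0.14 and 0.33.

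**Figure D4:**
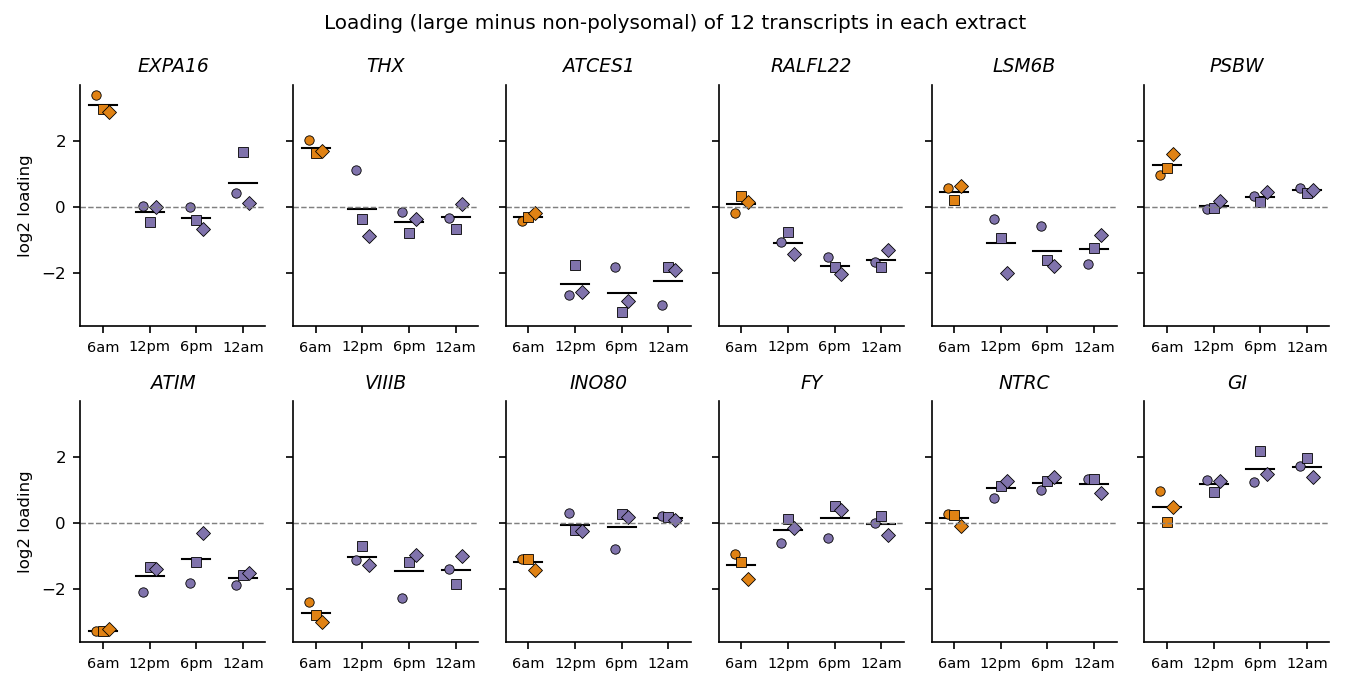
Log2 loading, large minus non-polysomal (vertical axis), of 12 transcripts in each extract at 6am, 12pm, 6pm and 12am; points are extracts (circle, square and diamond for replicates 1, 2 and 3) and lines are means (n = 3). The upper 6 transcripts have their highest and the lower 6 their lowest mean loading at 6am (EXPA16 3.07, ATIM -3.26). EXPA16 and ATIM do not have all 8 group means at 5 or more.

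The genes with a higher or lower loading at 6am differed in length. Gene span, the distance from the first to the last base of a gene in RefSeq with introns included, had a median of 1434 bp for the 6 largest positive differences (with all means of 5 or more) and 4259 bp for the 6 largest negative ones. Over 6717 nuclear genes, the Spearman correlation between span and the difference of 6am from the other times was -0.414, a description across genes, which are not independent replicates. Of 436 genes under 1000 bp 167 had a higher and 15 a lower loading at 6am (38.3% and 3.44%), and of 244 genes of 6000 bp or more 4 had a higher and 102 a lower one (1.64% and 41.8%). In the middle class, 2000 to 2999 bp, the shares were 16.5% and 11.8% of 2165 genes. From 4000 to 5999 bp the shares were 2.54% and 27.9%. The chromatin remodelling and ubiquitin-specific protease lists above had median spans of 5495 and 4030 bp. From 1000 to 1499 bp the shares were 34.5% and 4.9%, and the secreted peptide and nuclear photosystem lists had median spans of 1190 and 1310 bp. From 1500 to 1999 bp they were 27.8% and 7.61%, and the ubiquitin-conjugating and autophagy lists had median spans of 1891 and 1798 bp. The LSM and U2AF list, at 2024 bp, fell in the middle class. The part of span in the counts of these lists was not tested.

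At 6am itself loading hardly followed span. The median loading was 0.23 for genes under 1000 bp, 0.19 from 1000 to 1499 bp, 0.05 from 1500 to 1999 bp, -0.01 from 2000 to 2999 bp, -0.02 from 3000 to 3999 bp, 0.07 from 4000 to 5999 bp and 0.36 at 6000 bp or more. Both ends of the range were thus above the middle. At 6pm the medians of the shortest and the longest class were -0.25 and 0.80, at 12pm -0.12 and 0.62, and at 12am -0.17 and 0.87. The Spearman correlation of loading with span was -0.012, -0.029 and -0.067 in the 3 extracts of 6am. It was 0.050, 0.172 and 0.141 at 12pm, 0.087, 0.237 and 0.247 at 6pm and 0.197, 0.232 and 0.144 at 12am. The 3 extracts of 6am were below all 9 others (mean -0.036 ± 0.028 against 0.167 ± 0.069, SD, n = 3 and 9). A two-sided exact permutation test over the 12 extracts gave p = 0.0091, the smallest that the 220 splits allow. It treats the 12 extracts as exchangeable and leaves out the times and replicate numbers that they share. The relation was chosen after the values were seen, so this p has no standing beyond describing these extracts. Within 3 equal classes of genes by mean level at 6am, the Spearman correlation of the difference with span was -0.309, -0.431 and -0.461, from the dimmest to the brightest class. Coding length was not used here, and gene span also holds introns and untranslated parts.

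**Figure D5:**
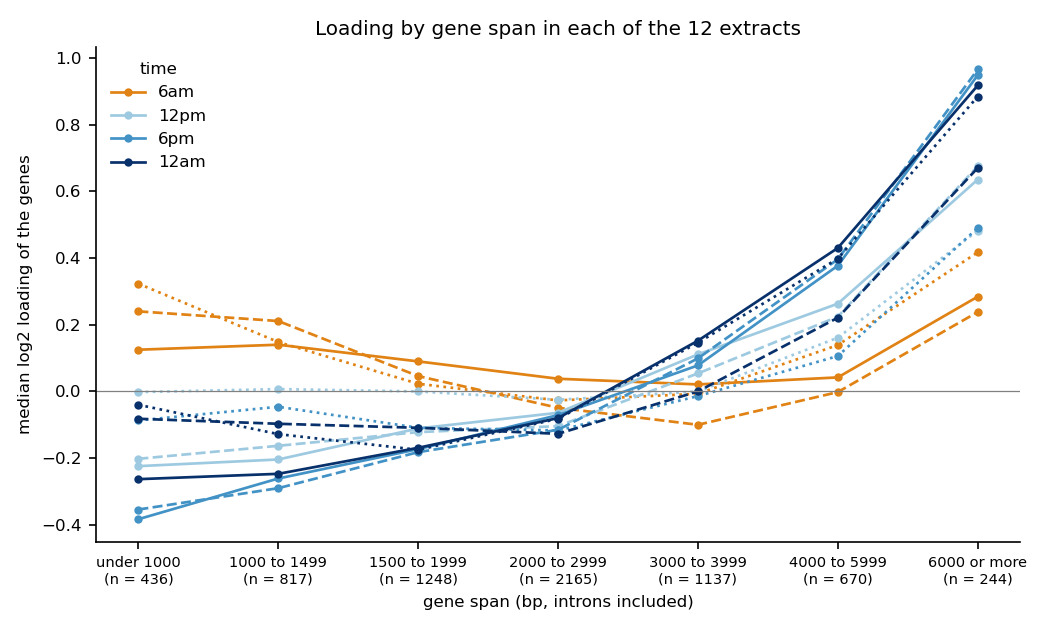
Median log2 loading of nuclear genes (vertical axis) in 7 classes of gene span in bp (horizontal axis, number of genes in brackets) in each of the 12 extracts; colours are times and dotted, solid and dashed lines are replicates 1, 2 and 3. The 6am extracts are highest for the shortest genes and lowest for the longest, with medians of the mean loading over 3 extracts of 0.23 and 0.36, against -0.25 and 0.80 at 6pm.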

How the data were processed

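RNA of 3 sucrose-gradient fractions from 12 extracts (4 times, 3 replicates) was measured on 36 Affymetrix Arabidopsis arrays, per the labels' protocols as biotin-labelled cRNA made with an oligo(dT) primer. The deposited log2 values, 1 for each probe set and array, were made by the authors with GCRMA in R 3.1 and affy 1.42.3, per the submitters' processing notes; other settings are not given in the sources used here. They run from 2.15 to 15.55, and a low value has only a bound. Arrays give no counts, so their number limits the precision.

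Of 22810 probe sets, 64 controls were left out and 12635 with 5 or more on at least 3 arrays were kept. Gene names come from the platform annotation, updated through RefSeq (TAIR10.1): 6824 probe sets name 1 gene, 263 several and 5548 none. They cover 6804 genes, 5825 of them by locus code only, so lists (by symbol, and by synonym for a few loci) hold a part of their families, and cytosolic ribosomal proteins could not be listed. Symbols that the annotation gives to 2 loci (4 cases) were replaced by the locus code. Of several probe sets of a gene the brightest was used; of 20 such genes 1, AT1G79990, was called in both directions.

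One limma 3.58.1 fit in R 4.3.3 over all 36 arrays had the 12 extracts as blocks and fraction within time (16 residual and 7.2 prior degrees of freedom). Adjusted p-values are Benjamini-Hochberg over all probe sets kept, SE are moderated, and calls were made below an adjusted p of 0.05. The fit was tested on simulated data. The fractions were paired by replicate number. After group means were removed, large and non-polysomal arrays of 6am with the same number correlated at 0.412 to 0.624. Those with different numbers correlated at -0.439 to -0.126. Deviations from a group mean cancel out within the group, so positive same-number values bring negative different-number ones, which are no separate evidence of pairing. All 36 same-number pairs of fractions within a time were above 0.1. What equal numbers share, such as an extract, a harvest or a processing batch, was not tested. The exact permutation test of gene span used scipy 1.17.1.

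The comparison, the lists and the tests were chosen with earlier results of these data known. Genes were named by rank (largest differences called, with the same sign in all 3 pairs and means of 5 or more), by list and from the clock; the ranking among genes with an own symbol and the list examples were added after values were seen, as were gene span, used in place of protein length, and leaving out each other time. Alternatives changed the block, arrays, filter, normalization, variance model, probe sets and replicates.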

Additional observations from a re-analysis of the deposited data

Results flagged for a closer look

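The difference of the 6am loading from the mean of the other times, on the log2 scale, passed the test of the difference itself in limma for the genes below, which is what singled them out. It was positive for EXPA16 (2.99), AT5G11340 (2.27), AT5G67510 (2.13), AT2G34585 (2.11), ATCES1 (2.1), THX (2.06), LSM6B (1.71), RALFL22 (1.58), GLX2-5 (1.5), LSM3B (1.44), RALFL24 (1.29), TUB1 (1.24), PIFI (1.21), LSM6A (1.21), RALFL33 (1.13), UBC30 (1.04) and GAMMA-VPE (1.03). Smaller positive values were those of PSBW (0.98), AT3G50370 (0.87), SECE1 (0.81), PRK (0.74), STOMAGEN (0.71), PSAN (0.69), PSAE-1 (0.62), RALFL32 (0.54), HTB11 (0.52), ATPC1 (0.51), TIL (0.44) and HVA22C (0.42).

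The difference was negative for AT1G23650 (-3.12), petD (-2.82), petN (-1.84), ATIM (-1.81), AT4G24450 (-1.77), AT1G54380 (-1.65), M17 (-1.52), VIIIB (-1.42), UBP21 (-1.31), MAP1B (-1.24), FY (-1.23), INO80 (-1.2), GI (-1.01) and NTRC (-1.0). It was also negative for atpB (-0.93), FUG1 (-0.89), MENG (-0.85), 3xHMG-box2 (-0.66), PSY1R (-0.65), LPA2 (-0.63), AT5G26570 (-0.61) and OASA2 (-0.57). As the contrast is with a mean, 6am need not stand apart from every other time. PSY1R had loadings of 2.57 at 6am and 2.66 at 12pm, and AT5G26570 had 0.59 and 0.62. AT1G23650, petD and petN had large polysomal values at the low end of the scale at 6am. EXPA16 and AT3G50370 had non-polysomal means of 4.35 and 3.02 at 6am, and ATIM and M17 had a mean under 5 at another time. The other times can be limited too, as AT1G23650 had loadings of -0.5 and -0.67 at 12pm and 6pm, and petD 0.0 in replicate 1 of 6pm. The differences of these genes have no exact size. The Spearman correlation between loading and gene span was lower in the 6am extracts than in the others by 0.204 (difference -0.204), a relation chosen after the values were seen.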

How the results depend on the processing

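The fractions were paired by replicate number. Without the replicate block the count of probe sets called between large and non-polysomal RNA at 6am was 7200 in place of 8303. Without the block, 2266 were called for 6am against the other times in place of 4099, and 2707 between large and small polysomal RNA in place of 4321. Leaving out 1 replicate number gave 7018 to 7876 for large against non-polysomal, 1264 to 4588 for 6am against the other times, 2369 to 3946 for large against small polysomal and 4189 to 5875 for small polysomal against non-polysomal. After arrays were shifted to equal poly(A) spike-in signal the 4 counts were 12417, 603, 10564 and 11977, and 12390 probe sets were higher and 27 lower on large polysomes (99.8% of calls higher, against 54.8%), with a median difference of 2.88 in place of 0.07. Median centring, cyclic loess and quantile normalization gave 49.0% to 49.8% higher. The cause of these changes was not tested. The filters gave 6770 to 8939 calls. Leaving the spike-in shift aside, 6 of 104 named genes lost the call between large and non-polysomal RNA and 25 that of 6am against the other times under at least 1 alternative, and none reversed. Under the spike-in shift 4 lost the first call, 27 lost the second and 33 differences between large and non-polysomal RNA turned positive, 26 of the 39 called lower and 7 that had not been called. These were DI21 (0.46), HVA22C (1.45), OASA2 (0.06), VIIIB (0.09), SFP1 (0.43), MENG (0.58), GLX2-5 (0.98), rps19 (2.69), psbA (0.49), rbcL (0.20), atpE (2.51), cox1 (0.77), nad1 (0.10), LHCB4.1 (2.67), LHCB4.2 (2.74), LPA19 (1.76), TROL (1.84), CHLM (2.1), COR27 (1.11), LIP1 (2.81), TUA6 (2.27), VPS20.1 (1.81), ATG8B (1.43), MAP1B (1.11), ATCES1 (2.5), LSM3B (1.92), RALFL32 (1.37), STOMAGEN (2.18), UBP21 (2.56), FY (1.54), INO80 (1.62), AT2G34585 (2.78) and AT1G54380 (0.70). List medians that turned positive under it were those of all plastid transcripts (1.01), plastid photosystem II (1.0), NDH (0.56), ATP synthase and Rubisco (1.6), RNA polymerase and maturase (1.43) and ribosomal proteins (1.66), the mitochondrial genome (0.77), starch (2.58), replication and mitosis (2.62), iron deficiency (2.7), branched-chain amino acid breakdown (2.45), LSM and U2AF (2.52), cytochrome P450 (2.38) and beta-glucosidases (2.62). The list median turned negative for the exocyst (-0.14 in place of 0.19, with a value of 7 or more on 3 arrays) and for subtilases and carboxypeptidases (-0.17 with that filter and -0.42 with 5 or more on all 6 arrays, in place of 0.65), where fewer members were left. Values near the low end of the scale limit the size of differences.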
